A study of Mus musculus with 56 samples.

Results

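The genes described here encode subunits of the receptors for glutamate, GABA and glycine, followed in the tumours, normal cerebella and cultured cells of a mouse study of N-myc-driven medulloblastoma. They were chosen by name alone: a gene was a member when a probe with that single gene symbol matched a fixed list of ionotropic and metabotropic glutamate, GABA-A, GABA-B and glycine receptor symbols, and the probe of highest mean stood for the gene. This gave 38 genes on 39 probes, of 15224 genes with such a probe. The 38 were 4 AMPA, 4 kainate, 5 NMDA and 1 delta glutamate receptor genes, 5 metabotropic glutamate receptor genes, 11 GABA-A subunits, 2 GABA-A rho subunits, 1 GABA-B gene and 5 glycine receptor genes. Other genes of these families, among them those for the obligatory NMDA subunit and for the alpha 1 subunit of the GABA-A receptor, were not analysed here.

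All 56 arrays came from mice of the FVB/N background. There were 32 tumours of the GTML mouse, a model in which a tetracycline-controlled transactivator, driven by the promoter of the glutamate transporter gene Glt1, switches on human MYCN. They were set against 5 whole cerebella of 7-day-old (P7) animals, which the labels give as GTML mice on doxycycline, the drug that shuts this transactivator off, so the controls carry the transgenes too. The rest of the series started from neural stem cells (NSCs) of the cerebellum at embryonic day 16 (E16C), of the cerebellum at birth (P0C) and of the forebrain at birth (P0F). NSCs were transduced with a mutation-stabilized N-myc (T58A), or with GFP as the control. N-myc NSCs were transplanted into the brain, and 3 such orthotopic tumours were profiled for each origin, with 1 culture of tumour cells for each origin (the P0F one labelled as glioma) and 1 culture from a GTML tumour. N-myc NSCs that had not been transplanted were profiled once each for E16C and P0C, and GFP NSCs once each for E16C and P0F and in 2 arrays, sorted and unsorted, for P0C. Nothing in the labels says whether the 3 tumours of an origin came from separate NSC preparations. Nor do they say whether the sorted and unsorted P0C GFP arrays came from separate cultures. The fits treat each array as a replicate, so p-values measure the spread between these samples. In 3 E16C samples (tumour 3, the tumour cells and the N-myc NSCs) the cell type tag names another sample of the series, and the title, which matches the source name, was followed. GTML tumours and P7 cerebella were labelled with 1 protocol and the transplanted tumours and cells with another; which one served for the culture from a GTML tumour is not clear from its labels.

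Ionotropic receptors are channels that the transmitter itself opens. AMPA, kainate and NMDA receptors are opened by glutamate and pass cations, whereas GABA-A and glycine receptors are chloride channels that hyperpolarize mature neurons and can depolarize immature ones. Metabotropic glutamate receptors and the GABA-B receptor act through G proteins. In the cerebellum, subunits change as granule neurons mature: the NMDA subunit Grin2b and the glycine receptor subunit Glra2 belong to immature tissue, whereas Gabra6, Gabrd, Grin2a and Grin2c come on in granule neurons that have settled and received synapses. Bergmann glia and oligodendrocyte precursors carry AMPA receptors as well, and the rho subunits and Grm6 are known mainly from the retina.

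Values were the authors' log2 robust multi-array averages, and every difference below is a difference of log2 values, so that 1 is a 2-fold change. A probe's level says nothing about the level of another gene's probe, and levels are compared only within a gene. No detection call came with the values. A level of 6.30, the 25th percentile of all values, served as a floor, and a gene was tested only where enough arrays stood above it. Array medians lay between 7.86 and 8.25. The tissue was whole tumour or whole cerebellum, so that fewer cells of a type and less RNA per cell cannot be told apart. Tumours 20 and 30 of the GTML group had the marker levels of several normal cerebellar cell types and are shown apart where it matters, as are tumours 22 and 31, which earlier results on these data had also set aside.

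**Figure D1:**
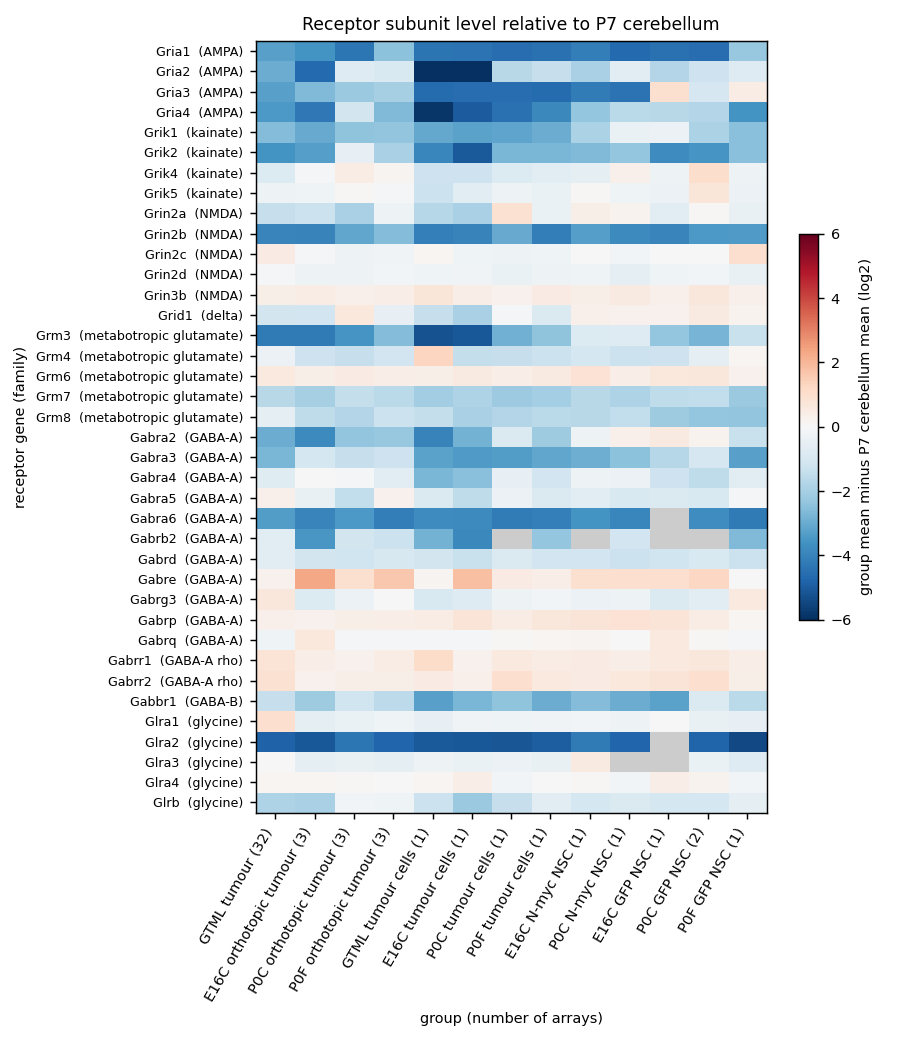
Group mean of each of the 38 receptor genes minus the mean of the 5 P7 cerebella (colour, log2), for the 13 other groups with their number of arrays. Blue is below P7 cerebellum and red above it; grey marks a group whose values for that gene were blank. Rows are ordered by receptor family, and Glra2, Grin2b and Gabra6 are blue in every group that has a value.

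The first question was how receptor genes stood in GTML tumours against normal cerebellum. Of the 33 members that passed the filter, 20 were lower in GTML tumours and 6 were higher at an adjusted p under 0.05 in limma, and 7 passed in neither direction. Over all 12270 genes tested, 24.8% were called lower and 32.9% higher. The median difference was -1.12 over the members and 0.10 over all genes. Of the 20 lower genes 17 had a fitted difference of at least 2-fold, while none of the 6 higher genes rose by that much. The 17 include Glra2 and Gabra6, which passed the filter only because of the cerebella and for which no fold is given. Most tumours also lay under the floor for Grik1 and Grin2a (26 of 32 each), Grin2b (24), Grm3 and Gabra3 (23 each) and Gabra2 (20). The differences of these genes compare the cerebella with tumour levels mostly under the floor. The groups did not overlap for 8 members, and for 10% of all genes tested.

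**Figure D2:**
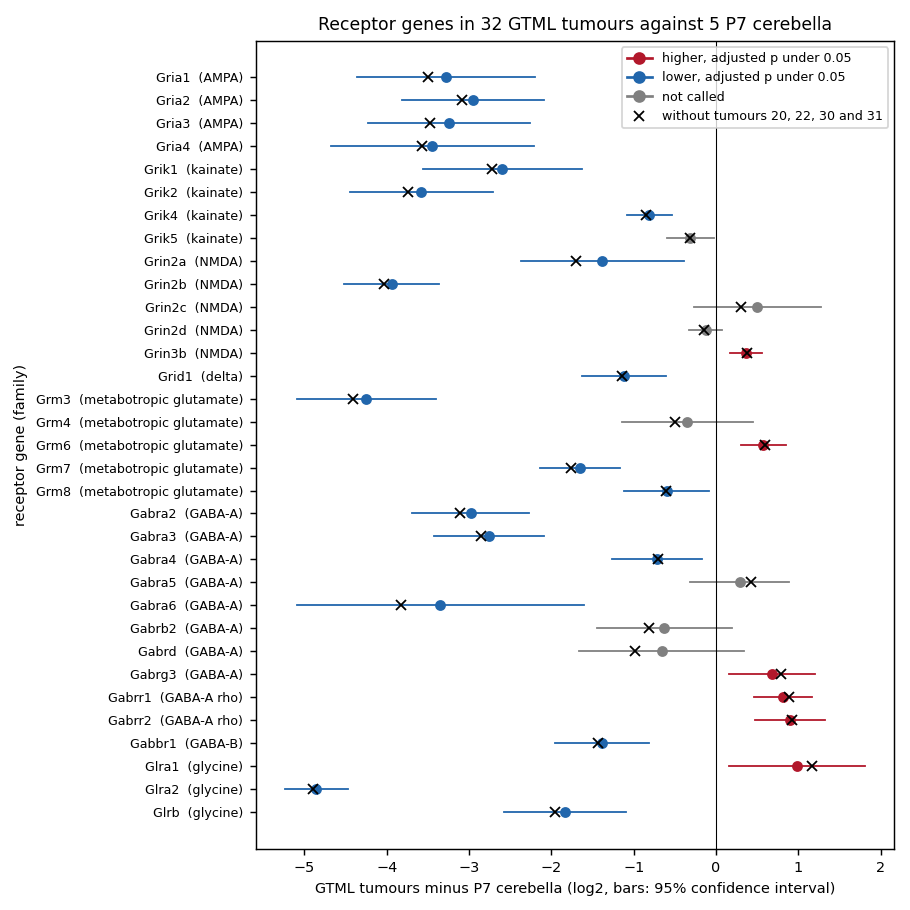
Difference between 32 GTML tumours and 5 P7 cerebella for the 33 receptor genes tested (x axis, log2; dots with 95% confidence intervals), by family. Blue dots passed the test as lower (20 genes), red as higher (6) and grey did not pass (7); crosses give the difference without tumours 20, 22, 30 and 31.

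AMPA receptors carry most fast excitation, and all 4 of their genes were lower in GTML tumours, with a median difference of -3.26. Gria2 encodes the subunit whose presence keeps calcium out of the channel. Its level was 6.08 to 11.29 (median 8.38) in the 32 GTML tumours and 11.52, 11.52, 11.56, 11.40 and 11.45 in the 5 P7 cerebella. Every tumour lay below every cerebellum, although tumour 20 at 11.29 lay just under the lowest. Gria1, which is abundant in Bergmann glia, reached 5.80 to 11.31 (median 6.91) in GTML tumours and 10.51, 10.35, 10.56, 10.35 and 10.46 in P7 cerebella. Gria4, also a Bergmann glia and granule cell subunit, had 5.41 to 12.32 (median 7.93) in GTML tumours and 11.88, 11.56, 11.53, 11.48 and 11.51 in P7 cerebella. Gria3 gave 5.49 to 10.71 (median 6.47) in GTML tumours and 10.11, 9.93, 10.13, 9.95 and 10.03 in P7 cerebella. For these 3 genes the groups overlapped only through tumours 20 and 30, which lay above all 5 cerebella; the other 30 tumours were all lower. The differences were -3.45 ± 0.61 (SE), adjusted p = 1.4e-05 for Gria4 and -3.28 ± 0.53 (SE), adjusted p = 4.01e-06 for Gria1. Those of Gria3 and Gria2 were -3.24 ± 0.49 (SE), adjusted p = 9.64e-07, and -2.96 ± 0.43 (SE), adjusted p = 5.11e-07.

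Among the kainate receptors, which modulate release and excitability, the 2 main channel subunits fell furthest. Grik2 stood at 5.98 to 10.95 (median 7.45) in GTML tumours and 11.46, 11.21, 11.19, 10.91 and 11.01 in P7 cerebella, a difference of -3.58 ± 0.43 (SE), adjusted p = 1.43e-08. Only tumours 20 and 30, at 10.95 and 10.93, reached the range of the cerebella. Grik1 was also lower (difference -2.60 ± 0.48 (SE), adjusted p = 2.39e-05), but GTML tumour 24 had 9.98, above all 5 cerebella at 8.42, 8.12, 8.17, 8.81 and 8.12, while the median tumour had 5.37. Of the high-affinity subunits that join them, Grik4 fell by 0.81 (adjusted p = 4.87e-06) and Grik5 differed by -0.31, which did not pass (adjusted p = 0.0536). Grid1, a delta receptor that binds cerebellins rather than glutamate at synapses, was lower (difference -1.12 ± 0.25 (SE), adjusted p = 0.000339).

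The NMDA receptor genes did not move as 1 block. Grin2b, the subunit of immature synapses, had 5.26 to 7.68 (median 5.79) in GTML tumours and 10.15, 9.95, 9.86, 9.84 and 10.09 in P7 cerebella. The highest tumour lay more than 2 log2 units below the lowest cerebellum, and the difference was -3.94 ± 0.29 (SE), adjusted p = 6.62e-14. Of the 32 tumours 24 lay under the floor for Grin2b. Grin2a, which joins maturing synapses, ranged over 5.24 to 9.87 (median 5.78) in GTML tumours and had 8.05, 7.36, 7.35, 7.52 and 7.21 in P7 cerebella. It was lower on average (-1.38 ± 0.49 (SE), adjusted p = 0.0155), but tumours 20 and 30 at 9.63 and 9.87 lay far above the cerebella. Grin2c, the subunit of mature granule neurons, and Grin2d, found in early interneurons and brainstem, did not pass. Their differences were 0.50 and -0.13, with 95% intervals of -0.27 to 1.27 and -0.33 to 0.08. Grin3b, a glycine-binding subunit known from motor neurons, was slightly higher (0.37 ± 0.10 (SE), adjusted p = 0.00154). All 5 cerebella lay under the floor for Grin3b, so it passed the filter through the tumours alone.

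Grm3, a group II metabotropic receptor of glia and presynaptic endings, was lower as well. Its level was 5.26 to 9.37 (median 6.00) in GTML tumours and 10.29, 10.76, 10.41, 10.56 and 10.66 in P7 cerebella, with no overlap even for tumours 20 and 30, and the difference was -4.25 ± 0.41 (SE), adjusted p = 1.4e-10. Grm7 and Grm8, presynaptic group III receptors, were lower by 1.65 (adjusted p = 6.26e-07) and 0.60 (adjusted p = 0.0409). The call for Grm8 was lost in 6 of 15 other settings of the processing or samples. Grm4, the group III receptor of granule cell endings in the cerebellum, had 6.84 to 11.17 (median 8.02) in GTML tumours and 9.21, 8.67, 8.13, 8.35 and 8.02 in P7 cerebella. Its difference of -0.35 did not pass (adjusted p = 0.459), and became -0.49 (adjusted p = 0.0106) without tumours 20, 22, 30 and 31. Grm6, the receptor of retinal ON bipolar cells, had 6.25 to 7.51 (median 6.46) in GTML tumours and 6.15, 5.92, 6.06, 5.94 and 5.95 in P7 cerebella. All 32 tumours lay above all 5 cerebella, with a difference of 0.57 ± 0.14 (SE), adjusted p = 0.000547. All 5 cerebella lay under the floor, so Grm6 passed the filter through the tumours alone.

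Of the 11 GABA-A subunit genes 8 were tested, and 4 were lower and 1 higher. Gabra2 and Gabra3, alpha subunits of fetal and early postnatal brain, did not overlap between the groups. Gabra2 had 5.25 to 9.03 (median 6.13) in GTML tumours and 9.48, 9.36, 9.14, 9.46 and 9.27 in P7 cerebella, a difference of -2.98 ± 0.35 (SE), adjusted p = 1.02e-08. For Gabra3 the values were 5.08 to 8.05 (median 6.05) in GTML tumours and 8.77, 8.61, 8.70, 9.73 and 8.86 in P7 cerebella, a difference of -2.76 ± 0.33 (SE), adjusted p = 1.45e-08. Gabra4 was lower by 0.72 (adjusted p = 0.0215). Gabra6, which in the brain is nearly confined to granule neurons of the cerebellum and cochlear nucleus, had 4.10 to 12.04 (median 4.35) in GTML tumours and 9.95, 7.92, 8.27, 7.58 and 7.58 in P7 cerebella. The mean difference was -3.35 ± 0.86 (SE), adjusted p = 0.00123, and 29 of the 32 tumours lay under the floor of 6.30. Too few tumours stood above the floor for the filter, so Gabra6 was tested only because of the cerebella and no fold is given. Gabrd, its partner in receptors outside the synapse, differed by -0.66 (adjusted p = 0.251), with 5.93 to 10.87 (median 6.40) in GTML tumours and 8.40, 7.26, 7.37, 6.90 and 7.13 in P7 cerebella. Gabra5, a subunit of tonic inhibition, had 5.35 to 8.22 (median 7.16) in GTML tumours and 6.35, 6.35, 6.58, 8.44 and 6.83 in P7 cerebella, and did not pass (0.29, adjusted p = 0.412). Neither did Gabrb2 (-0.63, adjusted p = 0.183, over 31 tumours with a value). Gabrg3 was higher in GTML tumours by 0.68 ± 0.26 (SE), adjusted p = 0.0226, with 5.78 to 8.02 (median 7.20) there and 6.27, 6.24, 6.04, 7.24 and 6.29 in P7 cerebella. Gabbr1, the ligand-binding subunit of the GABA-B receptor, was lower by 1.38 (adjusted p = 0.000106).

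Both rho genes were higher. Gabrr2 had 6.12 to 8.34 (median 6.65) in GTML tumours and 5.72, 5.78, 5.92, 5.81 and 5.96 in P7 cerebella, with no overlap and a difference of 0.90 ± 0.21 (SE), adjusted p = 0.000527. Gabrr1 had 6.04 to 8.15 (median 6.61) in GTML tumours and 5.83, 5.81, 5.84, 6.06 and 5.73 in P7 cerebella, a difference of 0.82 ± 0.17 (SE), adjusted p = 0.000161. Tumour 24 was the highest for both rho genes, at 8.34 and 8.15. For 5 of the 6 higher genes the P7 mean lay under the floor, so that their differences compare a low level with one near the floor, and all 6 dropped out of the test under a stricter filter. For Gabrr1, Gabrr2, Grm6 and Grin3b all 5 cerebella lay under the floor, so these genes passed the filter through the tumours alone. Markers of photoreceptors moved with them: all 8 such genes tested were higher in GTML tumours, with a mean level over the list of 6.67 to 11.23 in GTML tumours and 5.89 to 6.00 in P7 cerebella. Their part in the result was not tested.

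Of the 5 glycine receptor genes 3 were tested, and 2 were lower and 1 higher. Glra2, the alpha subunit of the fetal receptor, had 4.23 to 5.78 (median 4.58) in GTML tumours, all under the floor, and 9.62, 9.28, 9.46, 10.00 and 9.50 in P7 cerebella. The fitted difference was -4.86 ± 0.19 (SE), adjusted p = 4.05e-22. The gene passed the filter through the cerebella alone and the tumour level is known only as under the floor, so no fold is given. Glrb, the beta subunit that ties the receptor to gephyrin, had 6.68 to 11.00 (median 8.30) in GTML tumours and 10.40, 10.08, 10.17, 10.44 and 10.15 in P7 cerebella, a difference of -1.84 ± 0.37 (SE), adjusted p = 7.09e-05. Glra1, the alpha subunit of the adult receptor in brainstem and spinal cord, was higher, with 4.73 to 8.14 (median 6.79) in GTML tumours and 5.06, 5.25, 5.13, 7.01 and 5.79 in P7 cerebella (0.99 ± 0.41 (SE), adjusted p = 0.0369). Cerebellum 4 stood among the tumours at 7.01, while the other 4 cerebella lay below 5.80. Leaving out any 1 of cerebella 1, 2, 3 or 5 ended the call for Glra1 and for Gabrg3, and leaving out cerebellum 4 did not.

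**Figure D3:**
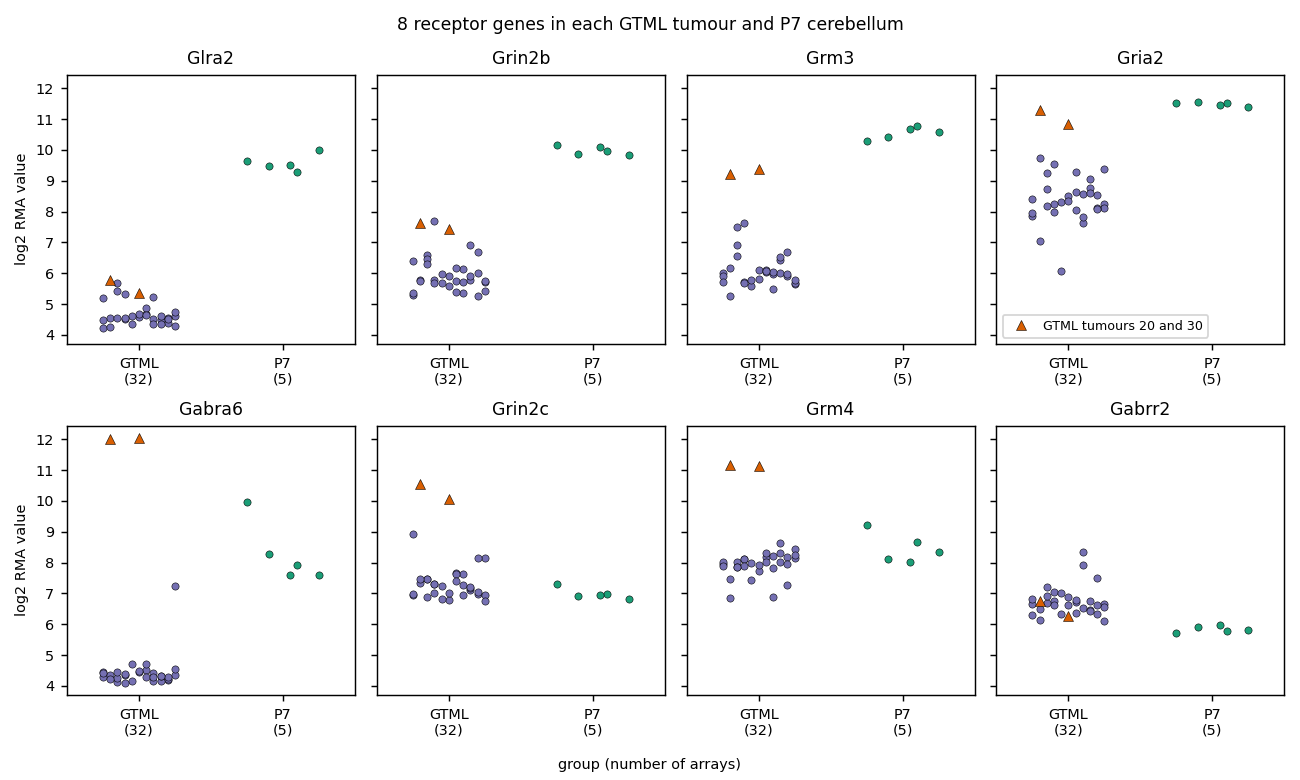
Log2 level (y axis) of 8 receptor genes in each of 32 GTML tumours (left) and 5 P7 cerebella (right); each point is an array. Orange triangles are GTML tumours 20 and 30, which lie with the other tumours for Glra2 and Gabrr2, between the groups for Grm3, and above the cerebella for Gabra6, Grin2c and Grm4.

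Some members are neighbours in the genome. By the RefSeq gene order of GRCm38.p6, no protein-coding gene lies between Gria2 and Glrb, which were both lower, or between Gabrr2 and Gabrr1, which were both higher. Gabrg3 and Gabra5 are also direct neighbours (differences of 0.68 and 0.29), as are Gabra6 and Gabrb2 (-3.35 and -0.63). Gabra2 and Gabra4 have 1 gene between them (-2.98 and -0.72), and so have Glra1 and Gria1, which were called in opposite directions (0.99 and -3.28). Gabra3 (-2.76) lies beside Gabrq and 1 gene from Gabre, neither of which passed the filter. The 250 bases before the start of the genes of both pairs, from RefSeq's GRCm38.p6 promoter table, are printed here because in these pairs both neighbours were called in the same direction; each CpG is in capitals.
Gria2, chr3:80802836-80803085, minus strand: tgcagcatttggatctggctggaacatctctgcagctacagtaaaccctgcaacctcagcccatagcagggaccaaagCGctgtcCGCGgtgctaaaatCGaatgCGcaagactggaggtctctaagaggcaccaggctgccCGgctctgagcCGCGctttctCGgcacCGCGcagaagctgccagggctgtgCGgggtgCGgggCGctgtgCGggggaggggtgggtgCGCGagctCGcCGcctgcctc
Glrb, chr3:80913661-80913910, minus strand: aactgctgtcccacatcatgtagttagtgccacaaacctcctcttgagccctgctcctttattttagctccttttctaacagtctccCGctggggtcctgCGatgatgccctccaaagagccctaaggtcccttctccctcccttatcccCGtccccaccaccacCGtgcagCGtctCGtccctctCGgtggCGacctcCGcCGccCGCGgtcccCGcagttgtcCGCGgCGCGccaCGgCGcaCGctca
Gabrr2, chr4:33062862-33063111, plus strand: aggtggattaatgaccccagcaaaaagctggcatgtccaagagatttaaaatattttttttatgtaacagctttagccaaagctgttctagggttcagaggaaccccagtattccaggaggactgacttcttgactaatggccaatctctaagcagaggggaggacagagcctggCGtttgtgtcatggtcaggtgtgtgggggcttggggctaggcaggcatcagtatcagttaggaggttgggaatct
Gabrr1, chr4:33132306-33132555, plus strand: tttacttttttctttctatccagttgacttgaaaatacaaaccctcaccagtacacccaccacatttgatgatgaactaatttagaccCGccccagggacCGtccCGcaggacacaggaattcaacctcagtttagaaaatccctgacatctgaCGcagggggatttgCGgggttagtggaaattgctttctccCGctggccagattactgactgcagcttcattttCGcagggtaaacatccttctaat
The lower pair has 19 and 20 CpGs in this window and the higher pair 1 and 7, where the median of 32851 promoters in the table is 6. A promoter was found for 29 of the 38 members, whose median was 9. For a member with several windows, the one with most CpGs was taken here and below, a choice not made for the 32851. Promoters of 1 chromosome were left out of all these counts. The 4 windows do not stand for all called members: the 14 lower genes with a promoter had 0 to 36 CpGs (median 16; Gabra3 0, Gabra6 2, Glra2 and Grm3 8 each), and the 5 higher genes had 1 to 9 (median 4; Gabrg3 9). None of the 29 held CACGTG, the hexamer that MYC proteins bind, in the 300 bases from 250 before to 50 after the start on either strand, and 8.09% of all 27025 genes in the table had it. TTCAGCACC, the left part of the RE1 element bound by the neuronal repressor REST, was in none of the 29 and in 0.433% of all genes. This says only that these letters are not in these windows.

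Tumours 20 and 30 stood apart from the other GTML tumours in these genes. Tumour 20 was above all 28 of the tumours other than 20, 22, 30 and 31 for 21 of the 38 members and below them for 3, where 21.9% of all genes were above and 24.7% below. Tumour 30 was above for 17 and below for 5, where 17.8% of all genes were above and 33.1% below. For tumour 22 the counts were 5 above and 8 below (33.2% and 27.7% of all genes), and for tumour 31 they were 5 and 11 (13.3% and 21.2%). Gabra6 reached 12.01 and 12.04 in tumours 20 and 30, against at most 7.23 in the 28 and at most 9.95 in P7 cerebella. Grm4 had 11.17 and 11.13 in them, against at most 8.64 in the 28. Gabrd had 10.87 and 10.79, against at most 7.05, and Grin2c 10.54 and 10.07, against at most 8.93. In both tumours 13 of 38 members lay above all 5 P7 cerebella, as did 26.6% of all genes. They were the 4 genes just named with Grin2a, Gria1, Gria3, Gria4, Glrb, Gabbr1, Gabrb2, Gabrr2 and Grm6. Of these, Grm6 in both tumours and Gabrr2 in tumour 30 lay under the floor. Another 9 lay below all 5, as did 28.3% of all genes: Glra2 (5.78 and 5.36), Grin2b (7.62 and 7.45), Grm3, Gabra2, Gabra3, Gabra5, Gria2, Grik1 and Grik5. The shares of members, 34.2% and 23.7%, were near those of all genes. The mean level of 8 Purkinje and interneuron markers was 10.56 and 10.18 in these tumours and 6.10 to 7.10 in the 28, and that of the oligodendrocyte list was 10.61 and 10.25 against 6.59 to 9.11. Photoreceptor markers averaged 6.67 and 8.81 in them, below the 9.82 to 11.23 of the 28. The part of these cell types in the receptor levels was not tested.

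Without tumours 20, 22, 30 and 31 more members were lower. The test then called 24 members lower and 6 higher, where calls also became more frequent over all genes (31.1% lower and 43.3% higher); Gabrd (-0.98, adjusted p = 2.66e-07), Gabrb2, Grik5 and Grm4 were the 4 additional lower genes. The 28 tumours lay entirely below the 5 cerebella for 15 members and entirely above them for 4, namely Gabrr1, Gabrr2, Grin3b and Grm6. Over all genes tested, 34.6% did not overlap in this way. For the 4 members entirely above, all 5 cerebella lay under the floor. Within the 28 the spread was uneven. Grik1 had an SD of 1.00 through tumour 24. Glra1 ran from 5.36 to 8.14 (SD 0.78) and Gria4 from 6.59 to 9.48 (SD 0.72), whereas Grin2d stayed within 7.10 and 7.71 (SD 0.16). Single tumours stood out for some genes: among the 28, tumour 24 for Grik1 as given above (next tumour 8 at 6.57) and tumour 4 for Gabra6 (7.23, with all others of the 28 under the floor), and beyond them tumour 31 for Gabre (7.93, against at most 4.95 in the 28).

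Genes of the synapse outside the receptor families, 38 of which were measured and tested, went the same way: 30 were lower in GTML tumours and 1 higher, with a median of -1.23. Gad1, which makes GABA, fell by 4.41 (adjusted p = 7.78e-06), and the glial glutamate transporter Slc1a3 fell by 3.54 (adjusted p = 1.92e-06). Cnih3, an AMPA receptor auxiliary protein, was the higher gene (0.71, adjusted p = 0.0143). Markers of several normal cell types were lower too: 8 of 8 Purkinje cell and interneuron genes, 6 of 8 granule neuron genes, 7 of 8 astrocyte genes, and all 8 oligodendrocyte and 7 precursor genes. So were 6 of 9 general neuron genes and 3 of 5 endothelial genes. Microglia genes did not go this way: of 4 tested, 2 were higher and 1 lower. The list means ran from 6.10 to 10.56 for Purkinje cells and interneurons, 7.21 to 10.63 for granule neurons and 6.35 to 11.00 for astrocytes in GTML tumours. In P7 cerebella they ran from 10.04 to 10.44, 10.66 to 11.12 and 10.18 to 10.50. Their part in the receptor differences was not tested.

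The second question was whether tumours grown from NSCs of different origin differed in their receptor genes. P0C tumours exceeded E16C tumours in 1 AMPA and 1 kainate receptor gene. Of 19 members tested, Gria4 and Grik2 were higher in P0C tumours and none was lower in limma, against 0.598% called higher and 0.165% called lower over 11533 genes. At an unadjusted p under 0.05 there were 6 members, and 14.7% of all genes. Gria4 had 10.10, 10.97 and 10.39 in P0C tumours and 8.24, 5.98 and 7.65 in E16C tumours, a difference of 3.19 ± 0.50 (SE), adjusted p = 0.0287. Grik2 had 10.66, 10.07 and 11.22 in P0C tumours and 8.32, 6.75 and 8.53 in E16C tumours, a difference of 2.79 ± 0.46 (SE), adjusted p = 0.0345. The 2 groups did not overlap for either gene. Gria2 differed more, with 9.81, 11.32 and 11.04 in P0C tumours and 6.18, 5.49 and 8.77 in E16C tumours (3.91), but E16C tumour 3 stood well above the other E16C tumours and the test did not pass (adjusted p = 0.086). E16C tumours 1 and 2 lay under the floor for Gria2. Grid1 (1.79, adjusted p = 0.0875) and Glrb (1.80, adjusted p = 0.173) also stood apart without passing. In all, 5 members did not overlap between these origins, and 16.4% of all genes did not.

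Each of these calls rested on few tumours: without P0C tumour 1 or P0C tumour 3 neither gene passed, and without P0C tumour 2 or E16C tumour 1 only 1 did. Oligodendrocyte genes were higher in the same P0C tumours. Of 8 in the list, 4 were called higher in P0C than in E16C tumours, and of 7 precursor genes 2 were (Olig1 and Olig2). The mean of the oligodendrocyte list was 9.30 to 11.52 in P0C tumours and 6.52 to 7.65 in E16C tumours, and that of the precursor list 9.62 to 11.85 and 7.25 to 9.28. Their part in the differences of Gria4 and Grik2 was not tested. Among synapse genes, Nlgn2, a postsynaptic adhesion protein of inhibitory synapses, was higher in P0C tumours by 1.58 (adjusted p = 0.00757), the 1 call of 33 tested.

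**Figure D4:**
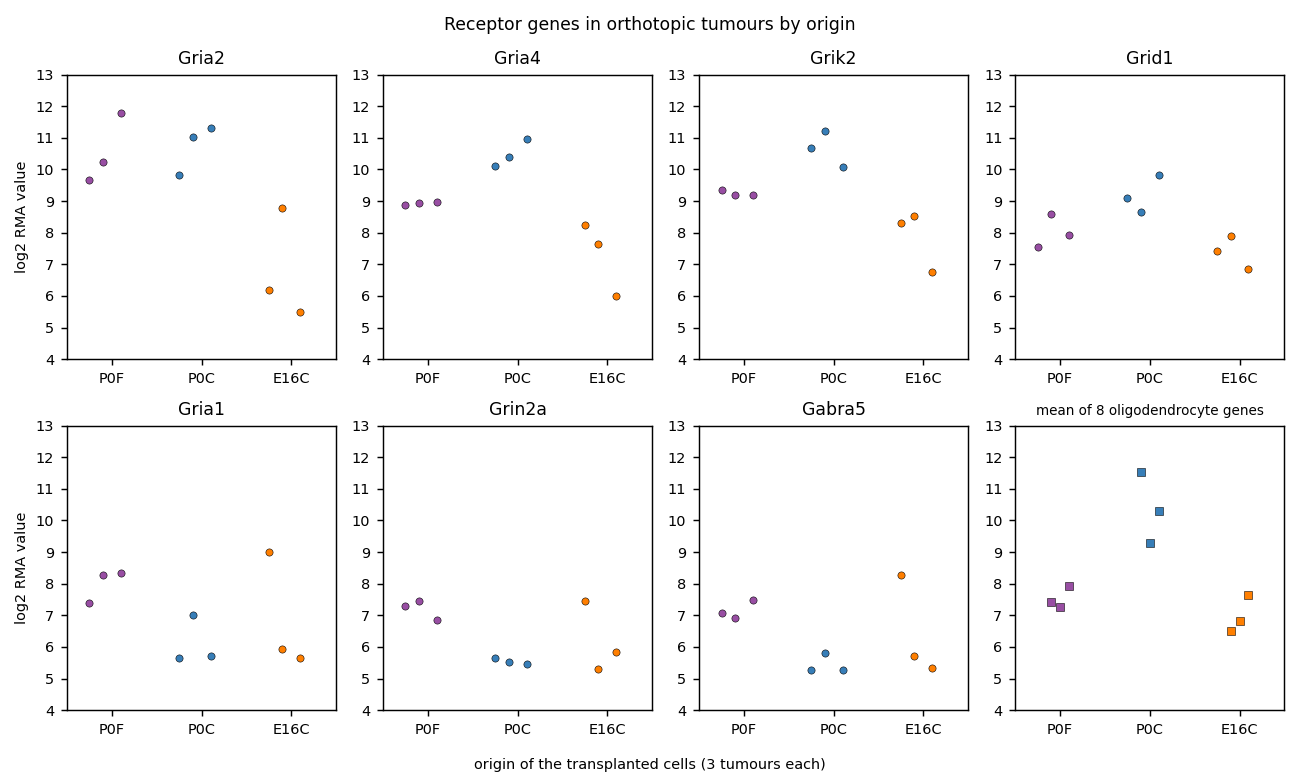
Log2 level (y axis) of 7 receptor genes in 3 orthotopic tumours from each origin (x axis), with the mean of 8 oligodendrocyte genes in the last panel; each point is a tumour. P0C tumours are highest for Gria4, Grik2, Grid1 and the oligodendrocyte mean, and E16C tumour 1 lies apart from the other E16C tumours for Gria1, Grin2a and Gabra5.

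P0F tumours, from forebrain cells, were compared with P0C tumours, which share the age at birth. No member of 26 passed limma in either direction, and over 11622 genes 0.817% were called higher and 0.49% lower. At an unadjusted p under 0.05 there were 8 members, and 16.6% of all genes. Grin2a had 7.29, 6.84 and 7.45 in P0F tumours and 5.65, 5.47 and 5.53 in P0C tumours (difference 1.65, adjusted p = 0.13). Gria1 had 7.38, 8.33 and 8.29 in P0F tumours and 5.65, 5.72 and 7.00 in P0C tumours (1.88, adjusted p = 0.293). Gabra5 had 7.08, 7.48 and 6.92 in P0F tumours and 5.26, 5.26 and 5.82 in P0C tumours (1.71, adjusted p = 0.239). All 3 P0F tumours exceeded all 3 P0C tumours for each of these genes. For Grin2a and Gabra5, however, all 3 P0C tumours lay under the floor, so these genes passed the filter through the P0F tumours alone. For Gria1, 2 of the 3 P0C tumours lay under it. Gria4 ran the other way, with 8.86, 8.98 and 8.94 in P0F tumours and 10.10, 10.97 and 10.39 in P0C tumours (-1.56, adjusted p = 0.171), and so did Grik2 (-1.42, adjusted p = 0.172). The groups did not overlap for 9 members, and for 25.6% of all genes. Both comparisons of origins share the P0C tumours and so are not independent. Oligodendrocyte genes were lower in P0F tumours as well (2 of 8 called, list means of 7.27 to 7.91 in P0F tumours and 9.30 to 11.52 in P0C tumours), and their part was not tested.

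Some members varied widely among tumours of 1 origin. Gria3 had 11.04 in P0C tumour 2 and 5.85 and 6.47 in the other P0C tumours. Gabra2 had 9.24 in the same tumour and 5.40 and 6.32 in the others. In E16C tumour 1, Gria1 (9.00), Gria3 (9.56) and Gabra5 (8.28) stood over 2 log2 units above both other E16C tumours. Grin2b was highest in P0C tumour 3 (8.59), which also had the highest Glra2 of the 9 (6.51), against 9.28 in the lowest P7 cerebellum.

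The third question was how orthotopic tumours differed from the GFP NSCs that stand for their cells of origin, with origin as a term in the fit. Of 27 members tested 2 were higher in tumours and 3 lower, against 4.34% called higher and 7.42% called lower over all genes. Gabra2 fell furthest: it had 5.36, 5.56 and 5.59 in E16C tumours, 5.40, 9.24 and 6.32 in P0C tumours and 6.26, 6.73 and 8.23 in P0F tumours. In GFP NSCs it had 9.87 in E16C, 9.93 and 9.20 in P0C and 8.01 in P0F. Only P0C tumour 2 and P0F tumour 3 reached the range of the cultures, and the fitted difference was -2.60 ± 0.62 (SE), adjusted p = 0.015. Grm3 was lower by 1.20 (adjusted p = 0.0346) and Grm4 by 0.72 (adjusted p = 0.0347). Grm4 had 7.20, 6.84 and 7.70 in E16C, 7.24, 6.72 and 7.30 in P0C and 7.40, 7.38 and 7.22 in P0F tumours, against 7.22 in E16C, 7.75 and 8.07 in P0C and 8.60 in P0F GFP NSCs.

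Grik2 was higher in tumours, with 9.34, 9.18 and 9.18 in P0F tumours and the E16C and P0C values given above, against 7.38 in E16C, 7.81 and 7.44 in P0C and 8.64 in P0F GFP NSCs (1.61 ± 0.46 (SE), adjusted p = 0.0347). P0C tumours stood furthest above the GFP NSCs of their origin. Gabra4 had 9.44, 8.99 and 8.91 in E16C, 9.08, 9.09 and 8.90 in P0C and 8.31, 8.53 and 8.56 in P0F tumours, against 7.84 in E16C, 7.32 and 7.81 in P0C and 8.47 in P0F GFP NSCs (1.04 ± 0.31 (SE), adjusted p = 0.0414). The E16C and P0C tumours all lay above their own GFP NSCs, and the P0F tumours lay on both sides of theirs. Without P0C GFP NSC array 1, and without both P0C GFP NSC arrays, 0 members were called in either direction, and without array 2 alone there were 0 higher and 2 lower. Without P0C tumour 1 or 3 the count of higher calls was 0, and without the P0F GFP NSC array or P0F tumour 2 or 3 the count of lower calls was 1. Over 21 other settings the call was lost in 11 for Gabra4, 8 for Grm3, 5 for Grik2 and 3 for Gabra2. For Grm4 it was lost in 9 of 20. All 5 microglia and all 4 endothelial genes tested were higher in tumours, with list means of 7.39 to 8.43 in tumours and 6.07 to 6.73 in GFP NSCs for microglia, and the part of these cells was not tested. Whether the change from NSC to tumour differed between origins was tested as an interaction. It passed for none of 29 members for P0F against P0C (2.29% called higher and 2.16% lower over all genes) or for E16C against P0C (0.521% and 0.429%), with 5 members at an unadjusted p under 0.05 in each, where 23.6% of all genes reached that in P0F against P0C and 17.3% in E16C against P0C. The lowest adjusted p values were 0.0509 for Gabra4 in P0F against P0C (-1.46) and 0.102 for Gria4 in E16C against P0C (-3.29).

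Between the cells cultured from orthotopic tumours and the tumours, no member of 28 passed limma. Over all genes 1.78% were called higher and 2% lower in the cultures. At an unadjusted p under 0.05 there were 7 members, all lower, and 19.6% of all genes. Gabra3 came nearest, with 5.54 in E16C, 5.56 in P0C and 5.81 in P0F tumour cells. The 9 tumours had 6.50, 9.03 and 8.15 for E16C, 6.21, 9.00 and 7.42 for P0C and 7.87, 7.70 and 7.58 for P0F. All 3 cultures lay below all 9 tumours, with a difference of -2.08 ± 0.57 (SE), adjusted p = 0.0563. The titles name a tumour numbered 1 as the source of each culture, and the fit did not pair them. Gria3 had 5.46 in E16C, 5.48 in P0C and 5.42 in P0F tumour cells, also below all 9 tumours (-2.28, adjusted p = 0.175). For Gabra3 and Gria3 all 3 cultures lay under the floor, so both genes passed the filter through the tumours alone. Grik4 was the third member of 28 without overlap (-1.08, adjusted p = 0.0929), and 7.19% of all genes had none. Of the 5 microglia genes tested 4 were lower in the cultures, and of 4 endothelial genes 3. Their part was not tested.

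N-myc NSCs before transplantation were set against GFP NSCs. None of 26 members passed limma, and over 11867 genes 0.00843% were called higher and 0% lower. At an unadjusted p under 0.05 there were 2 members of 26, and 8.92% of all genes, so that their share did not exceed the background; the 2 are given as values. Gria3 had 5.85 in E16C and 5.60 in P0C N-myc NSCs, against 10.99 in E16C, 9.54 and 8.47 in P0C and 10.46 in P0F GFP NSCs. The fitted difference was -4.07 ± 1.18 (SE), adjusted p = 0.526. Both N-myc cultures lay under the floor and all 4 GFP cultures above 8. Gria3 therefore passed the filter through the GFP cultures alone, and no fold is given. Grm3 had 9.74 in E16C and 9.74 in P0C N-myc NSCs, against 8.20 in E16C, 8.18 and 7.34 in P0C and 9.20 in P0F GFP NSCs (1.92 ± 0.50 (SE), adjusted p = 0.526). Both N-myc cultures were above all 4 GFP cultures. The comparison of tumours with GFP NSCs uses the same 4 GFP arrays and is not independent of this one. In the tumours Grm3 had 6.16, 6.79 and 5.92 for E16C, 6.24, 7.77 and 6.96 for P0C and 8.30, 7.87 and 7.58 for P0F.

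**Figure D5:**
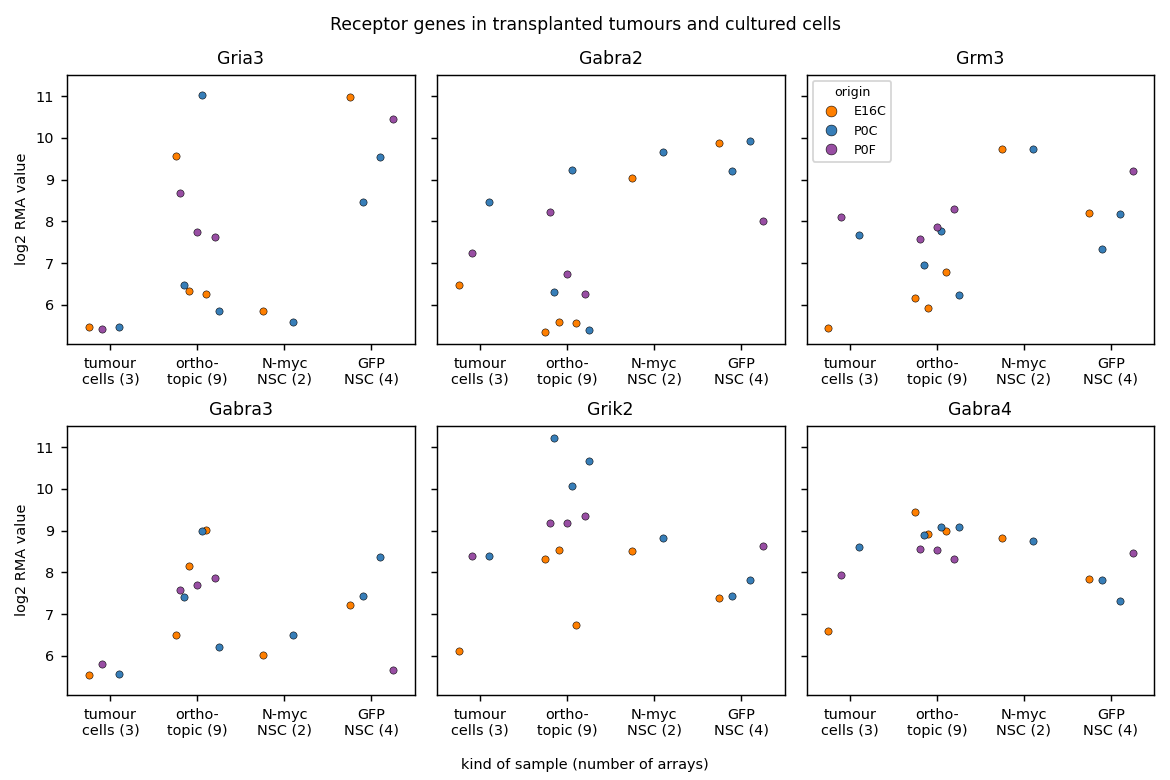
Log2 level (y axis) of 6 receptor genes in tumour cells, orthotopic tumours, N-myc NSCs and GFP NSCs (x axis, with the number of arrays), coloured by origin; each point is an array. Gria3 lies under 6 in all 3 tumour cell cultures and both N-myc cultures and above 8 in all 4 GFP cultures, while the 9 tumours spread from 5.85 to 11.04.

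Orthotopic tumours and GTML tumours, the 2 tumour models, were compared last; they were labelled with different protocols, and model and labelling cannot be told apart. Of 30 members 8 were higher in orthotopic tumours and 9 lower, where 26.7% of all genes were called higher and 32.9% lower, so the shares of members were near those of all genes. Without GTML tumours 20, 22, 30 and 31 the counts of 29 members tested were 12 higher and 9 lower, and over all genes 30.7% were called higher and 38.3% lower. Grik2 averaged 9.25 ± 1.33 in 9 orthotopic tumours and 7.58 ± 0.98 in 32 GTML tumours (SD), a difference of 1.67 ± 0.39 (SE), adjusted p = 0.000258. Gabra3 averaged 7.72 ± 0.96 in orthotopic and 6.18 ± 0.74 in GTML tumours (1.54 ± 0.29 (SE), adjusted p = 1.32e-05), and Glrb 9.46 ± 1.10 and 8.41 ± 0.83 (1.06 ± 0.33 (SE), adjusted p = 0.00508). Grik4, Grid1, Grm3, Grin2b and Gabra4 were higher by 0.48 to 0.98. The groups overlapped for each of these genes.

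The members lower in orthotopic tumours included 4 of the 6 genes that GTML tumours had shown above P7 cerebella, the exceptions being Grm6 and Grin3b. The share of such genes over all genes was not computed. Both comparisons use the same GTML tumours, so the 4 of 6 cannot be read as particular to receptor genes. Glra1 averaged 5.24 ± 0.21 in orthotopic and 6.64 ± 0.89 in GTML tumours (-1.39 ± 0.29 (SE), adjusted p = 6.82e-05), and no orthotopic tumour exceeded 5.55. All 9 orthotopic tumours lay under the floor for Glra1, so it passed the filter through the GTML tumours alone and no fold is given. Gabrg3 was lower by 1.07 (adjusted p = 2.38e-05), Gabrr2 by 0.58 (adjusted p = 0.00222) and Gabrr1 by 0.45 (adjusted p = 0.00353). Of the 9 orthotopic tumours 7 lay under the floor for Gabrg3, 5 for Gabrr2 and 8 for Gabrr1. Too few orthotopic tumours stood above the floor for the filter, so these genes passed it through the GTML tumours. The differences of these genes compare GTML levels with levels at or near the floor. Gabrb2, Grm8, Grm4, Gabra5 and Grin2c made up the rest. Gabrb2 had values in 6 of the 9 orthotopic and 31 of the 32 GTML tumours. For Grm8, 8 of the 9 orthotopic tumours lay under the floor, so it also passed the filter through the GTML tumours. These counts share the GTML tumours with the comparison against P7 cerebella. All 8 photoreceptor genes tested were lower in orthotopic tumours, with list means of 6.12 to 6.31 there and 6.67 to 11.23 in GTML tumours, and all 7 oligodendrocyte precursor genes were higher. Their part was not tested. Synapse genes split, with 13 higher and 8 lower of 37. The vesicular glutamate transporters Slc17a6 and Slc17a7 fell furthest, by 4.61 (adjusted p = 1.8e-10) and 3.43 (adjusted p = 2.22e-11), and Slc1a3 (2.24, adjusted p = 1.52e-05) and the adhesion protein Nlgn3 (1.88, adjusted p = 2.73e-06) rose most.

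Over all 56 arrays, Glra2 and Gabra6 were each above the floor in few samples other than the cerebella. Glra2 was above the floor in the 5 P7 cerebella and in P0C tumour 3 only, of the 54 arrays with a value, and Gabra6 only in the 5 cerebella and in GTML tumours 4, 20 and 30, of 55. Glra4 and Gabrp never passed the floor.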

How the data were processed

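RNA was measured on 56 mouse microarrays. The deposited values were log2 robust multi-array averages made by the authors, on build mm9 per the submitters' processing notes; version and settings were not given in the sources used here. Blank cells (3.12% of all) were left out. Of 17831 probes 15620 had 1 gene symbol and were used, with the probe of highest mean standing for a gene. limma 3.58.1 in R 4.3.3 fitted each comparison over all genes that passed a filter on low levels: a gene had to exceed 6.30, percentile 25 of the whole table, on a number of arrays no smaller than the smaller group, with Benjamini-Hochberg adjustment over those genes and a threshold of 0.05. Origin was a term where tumours, cells and NSCs were compared. The steps were tested on simulated data. Members, lists and comparisons were chosen with earlier results of these data known. Values by sample were given for the 8 called members of largest difference in each direction of a comparison and for a fixed set of AMPA, NMDA, metabotropic, GABA-A, rho and glycine receptor genes, and from the synapse list the 2 called genes of largest difference in each direction were named; members given besides these were picked after their values were seen. Alternatives were another normalization, centring, other filters, other probes, a replicate block and samples left out. The number of arrays limits the precision.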

Additional observations from a re-analysis of the deposited data

Results flagged for a closer look

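In the 5 P7 cerebella 7 of the 38 receptor genes had 1 array far from the other 4, by a rule that flags about 1 group in 20 of independent values. Genes of 1 array are not independent, and the share over all genes was not computed. The count therefore cannot be set against chance or read as particular to these genes. Cerebellum 4 was that array for 6 of them, always as the highest. It had 9.73 for Gabra3, 8.44 for Gabra5 and 7.24 for Gabrg3, while the other 4 cerebella lay at 8.61 to 8.86 for Gabra3, 6.35 to 6.83 for Gabra5 and 6.04 to 6.29 for Gabrg3. It had 6.36 for Gabrq, 8.62 for Grm7 and 8.20 for Grm8. Cerebellum 1 was the array for the remaining gene, with 11.88 for Gria4. Over all 38 genes cerebellum 4 was the highest of the 5 for 17 and cerebellum 1 for 13, and the shares over all genes were not computed here either.

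The 1 culture of GTML tumour cells entered no comparison. Its labels do not make clear with which of the 2 protocols it was labelled. It lay above both the floor of 6.30 and all 5 P7 cerebella for 5 of the 38 receptor genes, as it did for 39.3% of all genes: Grm4 at 9.78, Gabrr1 at 6.95, Grin3b at 6.82, Grm6 at 6.34 and Gabrr2 at 6.34. All but Grm4 are among the genes called higher in GTML tumours, and for these 4 the level was close to the floor of 6.30.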

How the results depend on the processing

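Of the counts of receptor genes called, 215 recomputed values stayed within 1.5 times the reported one and 29 did not. Of the values of single genes, 1143 kept direction and call, 73 kept direction but lost the call, 25 gained one and 4 turned. In GTML tumours against P7 cerebella the count of higher genes was 0 under the stricter filter, which left those 6 genes untested; it was 4 after quantile normalization and 4 to 6 with a cerebellum left out. The count of lower genes ran from 15 (stricter filter) to 24, and 18 to 20 with a cerebellum left out. Grin2d (-0.13, not called) turned to 0.034 after quantile normalization, 0.016 after centring of arrays and 0.0045 in the 10 arrays numbered 1 to 5, with and without a replicate block; the cause was not tested. Centring moved the median of all genes in this comparison to 0.25 and of the members to -0.97, and the share of all calls that were higher to 69.5%, against 57.0%.

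For P0C against E16C tumours the count of higher genes was 1 with a replicate block (Grik2, adjusted p = 0.0361, with Gria4 at 0.0682), and 0 to 3 with a tumour left out. The third gene, without E16C tumour 3, was Gria2 (adjusted p = 0.0139). E16C tumours 1 and 2 lay under the floor for Gria2, so it then passed the filter through the P0C tumours alone. Same-numbered samples did not deviate together (r of -0.167 to 0.197 over pairs of origins, and -0.135 to 0.130 for GTML tumours and cerebella). The values gave no sign that the numbers pair the samples, but so few pairs cannot exclude it. In orthotopic tumours against GFP NSCs the counts were 0 higher and 0 lower without both P0C GFP NSC arrays, and ran over 0 to 2 higher and 0 to 4 lower with an array left out. The tumours left out there were chosen after seeing the data, as was leaving out GTML tumours 20 and 30 alone. In this comparison the share of all calls that were higher was 55.1% after centring and 59.9% after quantile normalization, against 36.9%. For tumour-derived cells the count of lower genes was 1 under the stricter filter and without the orthotopic tumours numbered 1 (Gabra3 both times), and 0 to 1 with a culture left out (Gabra4, without the P0C culture). In orthotopic against GTML tumours the stricter filter gave 4 higher and 2 lower, since fewer genes were tested, and cerebellar tumours alone gave 5 higher. The origin difference of Gabra4 in P0F against P0C was called only with no filter, giving 1 lower gene. Leaving out the sole GFP NSC array of an origin gave no interaction value for that origin. The arrays have no detection call, so differences between levels near 6.30 are the least certain.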

Other observations

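The culture of GTML tumour cells lay below all 32 GTML tumours for 7 of 38 receptor genes and above all of them for none, where 11.1% of all genes were below and 14.6% above. The 7 were Gria2 (4.95), Gria3 (5.39), Gabrg3 (5.52), Gabra4 (6.38), Gabrb2 (6.41), Grik5 (7.82) and Gabbr1 (8.01). With 1 array there is no replicate check of these values, and its labelling protocol is not clear.

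GTML tumour 31 was the only GTML tumour with Gabre, the epsilon subunit of the GABA-A receptor, above the floor, at 7.93. Among the E16C tumours Gabre had 7.22, 5.77 and 7.45.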
